A study of Mus musculus with 11 samples.

Results

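The prostaglandin and leukotriene pathway was followed through 10 genes in the pancreas and adipose tissue of mice with obesity-related acute pancreatitis (OA-AP). The 10 were taken by gene symbol from the deposited count tables, out of 55350 genes listed in either table: Pla2g4a, Ptgs1, Ptgs2, Ptges, Ptger2, Ptger4, Hpgd, Alox5, Alox5ap and Alox15. All 10 were present in both tables.

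Cytosolic phospholipase A2, encoded by Pla2g4a, frees arachidonic acid from membrane phospholipids. The cyclooxygenases Ptgs1 (constitutive) and Ptgs2 (inducible, COX-2) turn it into prostaglandin H2, Ptges makes prostaglandin E2 from that, the receptors Ptger2 (EP2) and Ptger4 (EP4) sense prostaglandin E2, and Hpgd oxidises it to an inactive form. On the other branch, Alox5 together with its activating protein Alox5ap begins leukotriene synthesis, and Alox15 encodes the mouse 12/15-lipoxygenase, whose products include precursors of resolving mediators and which is known from resident peritoneal macrophages and eosinophils.

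Bulk RNA sequencing was available for 11 libraries, 5 from pancreas and 6 from visceral adipose tissue, to ask which genes change in OA-AP. All mice were male, wild-type animals aged 16 weeks, of the strain C57BL/6 by the labels and C57BL/6J by the study's methods. Control mice (2 pancreas and 3 adipose libraries) ate a diet with 10 kcal% fat for 12 weeks and received saline. OA-AP mice (3 libraries from each tissue) ate a diet with 60 kcal% fat for 12 weeks and received 2 intraperitoneal injections of ethanol, 2 g per kg each, 1 h apart. Tissue was taken 12 h after the first injection. Controls were thus lean as well as without ethanol, so that diet, ethanol and pancreatitis cannot be told apart in any OA-AP against control difference given here. The labels number the samples within each group but do not say whether a pancreas and an adipose library came from the same mouse.

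All 10 members are protein-coding genes whose start and end in the deposited tables equal those of the GRCm38 annotation. Ptgs2 lies on chromosome 1 from 150100031 to 150108227 on the plus strand, Alox15 on chromosome 11 from 70344152 to 70352031 on the minus strand, and Alox5ap on chromosome 5 from 149264767 to 149288153 on the plus strand. Hpgd spans 56294585 to 56321043 on chromosome 8 (plus strand) and Ptger4 spans 5206661 to 5244187 on chromosome 15 (minus strand). Counts were per gene over its exons. Ptger4 shares 82 exonic bases with Ttc33 on the opposite strand, a gene with up to 178 counts in a pancreas library, and Alox5ap shares 189 with Gm19719, which had at most 8 counts in any library. Whether counting used strand is not given in the sources used here, so reads in those bases cannot be assigned with certainty.

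Promoters are shown for the 3 members that were called changed in a tissue and have an entry in the RefSeq promoter table (GRCm38.p6). Each is the 250 bases before the RefSeq start, read 5′ to 3′ on the gene's own strand, with capitals on matches to TTNCNNAA (the letters of a C/EBP core) or to a loose NF-kB pattern (GGG and CC with 5 bases of any kind between them), both searched on either strand.
Ptgs2, chr1:150099781-150100030, + strand: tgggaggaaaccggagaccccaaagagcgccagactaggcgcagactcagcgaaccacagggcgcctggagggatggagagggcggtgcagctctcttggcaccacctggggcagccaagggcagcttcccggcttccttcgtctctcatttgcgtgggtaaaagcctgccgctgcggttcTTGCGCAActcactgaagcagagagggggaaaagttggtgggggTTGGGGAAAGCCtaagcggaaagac
Hpgd, chr8:56294302-56294551, + strand: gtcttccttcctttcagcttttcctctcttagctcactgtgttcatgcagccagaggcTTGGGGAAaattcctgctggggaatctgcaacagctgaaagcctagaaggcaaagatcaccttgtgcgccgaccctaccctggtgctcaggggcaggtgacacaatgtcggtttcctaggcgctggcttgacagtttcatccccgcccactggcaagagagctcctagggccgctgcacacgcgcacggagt
Ptger4, chr15:5244188-5244437, - strand: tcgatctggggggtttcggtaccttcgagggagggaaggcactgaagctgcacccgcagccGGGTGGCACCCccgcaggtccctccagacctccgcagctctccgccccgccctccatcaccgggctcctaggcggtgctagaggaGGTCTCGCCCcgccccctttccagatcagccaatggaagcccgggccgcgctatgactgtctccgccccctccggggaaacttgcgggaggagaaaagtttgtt
The Ptgs2 window held TTGCGCAA at -69 to -62 and, overlapping each other, TTGGGGAA at -25 to -18 and GGGGAAAGCC at -23 to -14, counted from the start. In the Hpgd window the match was TTGGGGAA at -192 to -185, and in that of Ptger4 all 3 matches were to the NF-kB pattern, and a pair of them overlapped. These letters are common: TTNCNNAA occurred in 36.8% and the NF-kB pattern in 45.8% of 32851 promoter windows of the same length, so a match describes the sequence and is no evidence of a bound site. Alox15 and Alox5ap were not among the table's entries.

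Depth was 14188832 to 17238919 counts in the pancreas libraries and 20825177 to 27928097 in the adipose libraries. Levels are CPM, counts scaled to a common library size with TMM factors of the tissue, so that 1 count equals 0.0523 to 0.0997 CPM in pancreas and 0.034 to 0.0518 CPM in adipose tissue. A gene was called changed at an adjusted p under 0.05 and a fold of at least 1.5, where every adjusted p is from edgeR's quasi-likelihood test over all genes tested. The acinar marker list summed to 684349 to 799735 CPM in control pancreas and 318668 to 406181 in OA-AP pancreas, and 9 of its 12 tested genes fell. The adipocyte list summed to 26081 to 29650 CPM in adipose tissue. Adipose control 2 stood apart: there the acinar list reached 6450 CPM, against 8.27 to 17.8 in the other adipose libraries. The labels do not say that each library came from its own mouse, so p-values measure the spread between these libraries only.

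Per kilobase of gene length, Hpgd was the most abundant member in control adipose tissue at 40.1 ± 11.6 CPM per kb (SD, n = 3). It was followed by Ptges at 12.7 ± 5.22, Alox15 at 10.4 ± 1.07, Alox5ap at 9.21 ± 0.930 and Ptgs1 at 6.91 ± 1.19 CPM per kb. Alox5, Ptger4, Pla2g4a and Ptger2 lay between 2.51 and 1.16, and Ptgs2 came last at 0.367 ± 0.135 CPM per kb. Ranges of neighbours in this order overlapped from Ptges to Alox5ap and from Alox5 to Ptger2, so the order inside those runs is not resolved. In OA-AP adipose tissue Ptgs2 stood in the fifth place at 3.28 ± 1.52 CPM per kb and Alox15 in the last at 1.06 ± 0.264 (SD, n = 3), but the range of Ptgs2 overlapped that of Alox5 after it and the range of Alox15 that of Ptger2 before it, so neither place is resolved. In control pancreas (n = 2) no member exceeded a mean of 0.992 CPM per kb, that of Ptger4, and in OA-AP pancreas Hpgd came first at 3.29 ± 1.70 CPM per kb (SD, n = 3).

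**Figure D1:**
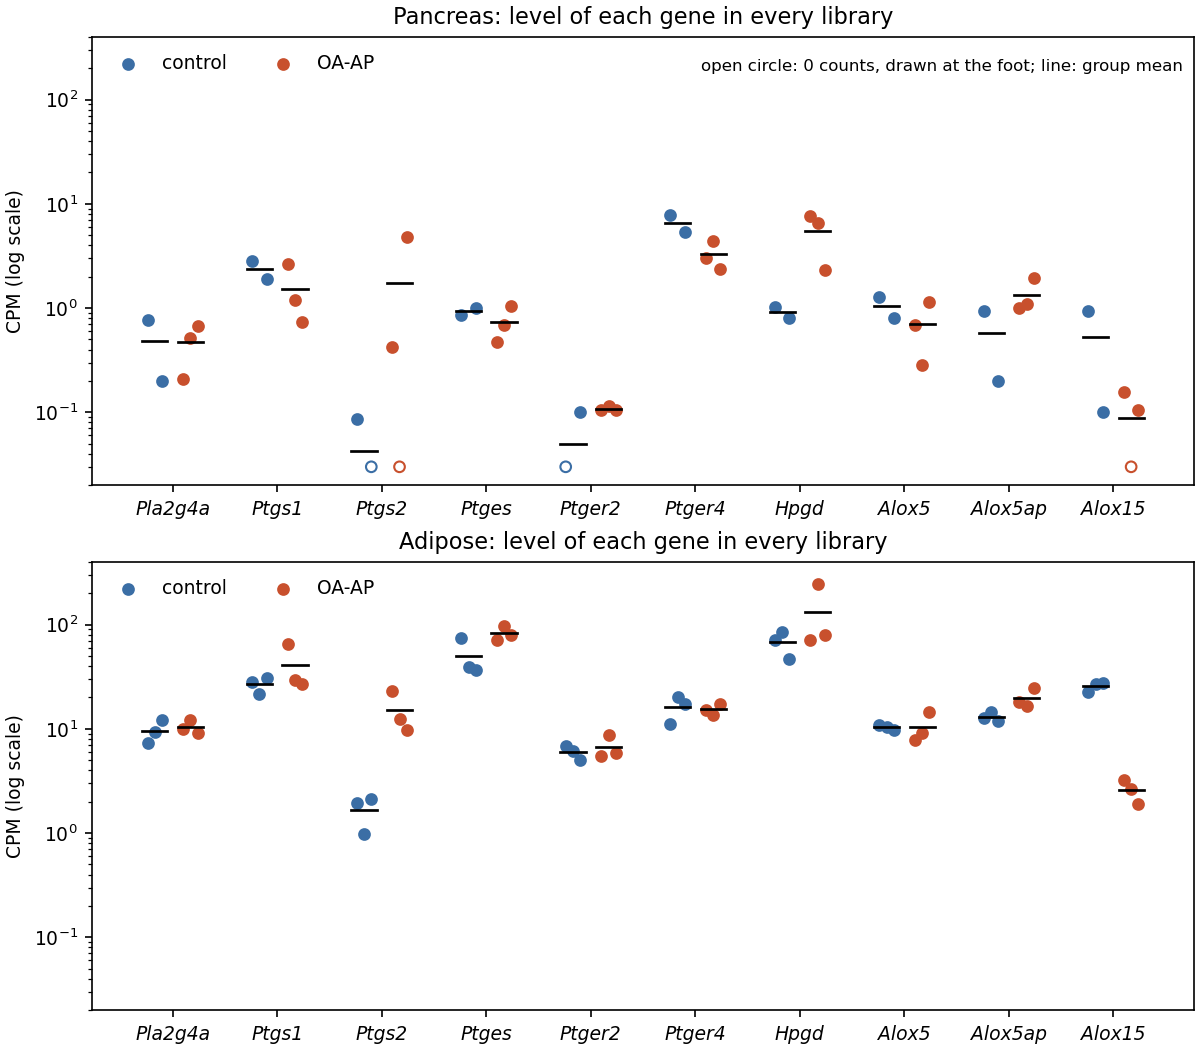
Level of each of the 10 genes in every library, in CPM on a log axis, for pancreas (top, 2 control and 3 OA-AP libraries) and adipose tissue (bottom, 3 and 3). Points are libraries, black lines group means, and open circles libraries with 0 counts. In adipose tissue Ptgs2 (0.97 to 2.11 against 9.65 to 22.9 CPM) and Alox15 (22.6 to 27.4 against 1.92 to 3.21 CPM) separate the groups in opposite directions.

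In adipose tissue of OA-AP mice the inducible cyclooxygenase rose and the 12/15-lipoxygenase fell. Ptgs2 was 8.82-fold higher, Alox15 was 9.87-fold lower, and Alox5ap was 1.51-fold higher. All 10 members were tested and these 3 were called, 2 higher and 1 lower, in a comparison in which 25.1% of 15839 genes were called (12.1% higher and 13% lower), so the share of members called was near that of all genes. The members' median log2 fold change was 0.37, that of all genes tested -0.01.

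Ptgs2 measured 1.96, 0.97 and 2.11 CPM in control adipose tissue and 22.9, 12.5 and 9.65 CPM in OA-AP. The lowest OA-AP library lay well above the highest control library. The log2 fold change was 3.14 (SE 0.42, adjusted p = 0.00252), from a mean of 1.68 ± 0.616 to 15.0 ± 6.95 CPM (SD, n = 3 each). It stayed called in each of the 6 fits that left out 1 library, with values of 2.71 to 3.38, and was 2.88 without the control library that held acinar transcripts.

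Ptges, the synthase that works downstream of Ptgs2, read 73.5, 39.5 and 36.6 CPM in controls and 71.7, 95.9 and 78.6 CPM in OA-AP. Control 1 lay inside the OA-AP range while the other controls lay below it. The log2 fold change of 0.72 (SE 0.28) missed the threshold with an adjusted p of 0.0852. It was called without control 1 (1.12, adjusted p = 0.00855) and by DESeq2 (0.72, adjusted p = 0.0283).

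The constitutive Ptgs1 measured 28.4, 21.7 and 30.5 CPM in controls and 65.7, 29.5 and 26.8 CPM in OA-AP, so that OA-AP 1 alone was high and the groups overlapped (log2 fold change 0.60, SE 0.35, adjusted p = 0.224). For Hpgd, which ends prostaglandin E2 signalling, the values were 71.4, 84.9 and 46.4 CPM in controls and 70.9, 243 and 79.8 CPM in OA-AP. OA-AP 2 stood far above every other library, and the log2 fold change of 0.96 (SE 0.50, adjusted p = 0.176) came to 0.16 without it.

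Neither prostaglandin E2 receptor among the members passed the test in adipose tissue. Ptger2 ranged over 5.04 to 6.79 CPM in controls and 5.49 to 8.70 in OA-AP (log2 fold change 0.15, 95% interval -0.37 to 0.68). Ptger4 ranged over 11.1 to 20.0 CPM and 13.7 to 17.4 CPM (log2 fold change -0.06, 95% interval -0.58 to 0.46). The supply enzyme Pla2g4a was at 7.27 to 12.0 CPM in controls and 9.14 to 12.0 in OA-AP, with an interval of -0.37 to 0.61 around a log2 fold change of 0.12.

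On the leukotriene branch, Alox5ap read 12.8, 14.5 and 11.9 CPM in controls and 18.1, 16.7 and 24.5 CPM in OA-AP. Each OA-AP library exceeded each control, and the log2 fold change was 0.60 (SE 0.17, adjusted p = 0.0291). This call lay at the edge of both thresholds: it was lost without control 1 (adjusted p = 0.0785), control 3 (0.0904) or OA-AP 3 (0.42, adjusted p = 0.0745), with library totals alone as scaling (0.44, adjusted p = 0.0700), with the replicate number as a block (0.58, adjusted p = 0.0687), and, on the fold alone, with no filter on low counts (0.57) or a filter of 10 counts in every library (0.58). Alox5 itself gave 10.8, 10.3 and 9.80 CPM in controls and 7.88, 9.04 and 14.3 in OA-AP, with a log2 fold change of 0.02 (SE 0.22, adjusted p = 0.958).

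Alox15 measured 22.6, 26.9 and 27.4 CPM in controls and 3.21, 2.64 and 1.92 CPM in OA-AP. The highest OA-AP library was far below the lowest control library. The log2 fold change was -3.30 (SE 0.20, adjusted p = 0.000218), from a mean of 25.6 ± 2.64 to 2.59 ± 0.649 CPM (SD, n = 3 each). In the 6 fits without 1 library it ran from -3.48 to -3.12, called each time. Ptgs2, Alox5ap and Alox15 were the 3 members whose adipose groups did not overlap, a pattern found in 52.4% of all genes tested.

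Cell type markers moved in the same libraries. Neutrophil markers summed to 7.20 to 12.9 CPM in control and 182 to 203 CPM in OA-AP adipose tissue, and all 7 tested rose. The macrophage list went from 937 to 1214 CPM in controls to 1160 to 1543 in OA-AP, with Cd68, Mrc1 and Cd14 higher and Csf1r lower. Beside the fall of Alox15, the 6 tested peritoneal macrophage markers moved both ways: their sum was 106 to 138 CPM in controls and 152 to 404 in OA-AP, Prg4 and Selp rose, Timd4 (log2 fold change -1.88) and F5 (-1.24) fell, and Gata6 (-0.11) and Icam2 (-0.11) did not pass the test. The eosinophil list was at 1.43 to 3.09 CPM in controls and 0.337 to 1.01 in OA-AP, with Ccr3 lower and Epx at 0 in both groups. B cell markers (6.90 to 43.0 against 1.71 to 2.68 CPM, 5 of 5 lower) and mast cell markers (62.9 to 67.6 against 35.8 to 47.6 CPM, 3 of 5 lower) also fell. So did those of fibroblasts (2354 to 2888 against 1300 to 1664 CPM, 4 of 5 lower) and T cells (6.64 to 14.9 against 2.75 to 4.39 CPM, 3 of 4 lower). Control 2, the library with acinar transcripts, was the highest control for B cells (43.0, against 6.90 and 12.6 CPM). It was also the highest for T cells (14.9, against 7.27 and 6.64 CPM). Platelet markers went from 40.9 to 53.9 CPM in controls to 64.9 to 103.6 in OA-AP, 2 of 4 higher. In bulk tissue fewer cells of a type and less RNA per cell cannot be told apart, and the part of these cells in the members' changes was not tested.

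**Figure D2:**
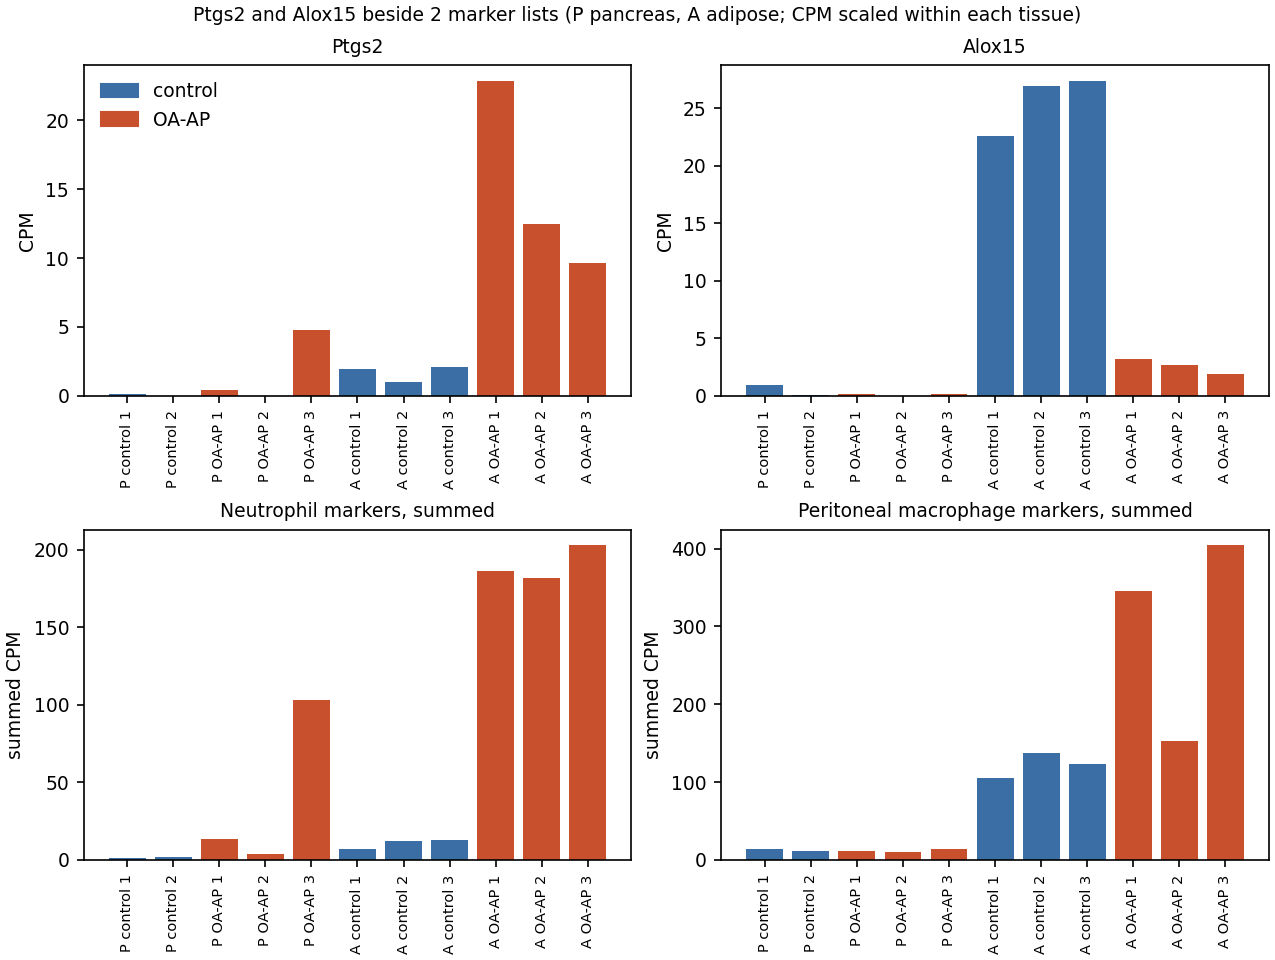
Ptgs2 and Alox15 (top, CPM) beside the summed CPM of the neutrophil and the peritoneal macrophage markers (bottom) in each of the 11 libraries, blue for control and orange for OA-AP, P for pancreas and A for adipose. Of the 6 peritoneal macrophage markers tested in adipose tissue, 2 were called higher and 2 lower, so their sum does not stand for each marker. Ptgs2 and the neutrophil sum are both high in the 3 OA-AP adipose libraries and, in pancreas, in OA-AP 3 (4.76 and 102.9 CPM), whereas Alox15 is high only in the 3 control adipose libraries. Within OA-AP adipose tissue, libraries 1 to 3 had Ptgs2 at 22.9, 12.5 and 9.65 CPM and neutrophil sums of 187, 182 and 203 CPM. The order of the libraries differed.

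In the pancreas the member that rose was Hpgd and the member that fell was Ptger4. Hpgd oxidises prostaglandin E2, and Ptger4 encodes a receptor for it. Of the 10 members, 6 passed the filter on low counts and 2 of those were called, in a comparison in which 29.8% of 12884 genes were called (16.2% higher and 13.5% lower). The median log2 fold change of the 6 was -0.44, against 0.04 for all genes tested.

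Hpgd had 12 and 8 counts in control pancreas and 147, 115 and 44 in OA-AP pancreas, or 1.03 and 0.798 CPM against 7.72, 6.58 and 2.30 CPM. The groups did not overlap, as in 62.3% of all genes tested in pancreas, and OA-AP 3 was the lowest of its group. The log2 fold change was 2.58 (SE 0.60, adjusted p = 0.0146), a 5.97-fold rise. With 1 control left, and assumed to vary like the OA-AP libraries, the size was similar but the call was lost (2.79, adjusted p = 0.103, without control 1 and 2.42, adjusted p = 0.128, without control 2).

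Ptger4 measured 7.81 and 5.38 CPM in controls and 3.05, 4.40 and 2.35 CPM in OA-AP pancreas, again without overlap. The log2 fold change was -1.02 (SE 0.32, adjusted p = 0.0424). The call depended on the scaling: with library totals alone, which moved the median of all genes from 0.04 to 0.75, Ptger4 was at -0.31 (adjusted p = 0.502), below that median. It was also lost without control 1 (-0.72, adjusted p = 0.306), control 2 (-1.26, adjusted p = 0.0940) or OA-AP 1 (-0.99, adjusted p = 0.115).

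The other 4 tested members did not pass. Alox5ap had 0.944 and 0.199 CPM in controls and 0.998, 1.09 and 1.94 CPM in OA-AP, without overlap, which 62.3% of all genes tested also showed (log2 fold change 1.18, SE 0.66, adjusted p = 0.201), and it was called with library totals alone (1.83, adjusted p = 0.0389). The log2 fold changes of Ptgs1 (-0.64, adjusted p = 0.397), Ptges (-0.33, adjusted p = 0.664) and Alox5 (-0.56, adjusted p = 0.527) had overlapping groups and turned positive, still uncalled, with library totals alone.

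Ptgs2, Alox15, Pla2g4a and Ptger2 were removed by the filter in pancreas. Ptgs2 had 1 and 0 counts in controls and 8, 0 and 91 in OA-AP, so that OA-AP 3 held nearly all of its reads at 4.76 CPM while OA-AP 2, at 0, allows up to 0.172 CPM by the limit of 3 counts. Without the filter its adjusted p was 0.522. Alox15 had 11 and 1 counts in controls and 3, 0 and 2 in OA-AP (adjusted p = 0.143 without the filter), Pla2g4a 9 and 2 against 4, 9 and 13, and Ptger2 never more than 2. None of the 4 was called by edgeR without the filter.

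The library with the Ptgs2 reads also differed in its markers. Neutrophil markers summed to 1.03 and 1.89 CPM in control pancreas and to 13.3, 3.66 and 102.9 CPM in OA-AP, with Ly6g, Retnlg and Cd177 at 0 in both controls. None of the 6 tested neutrophil markers was called in the pancreas by edgeR. Platelet markers reached 14.1 CPM in OA-AP 3 against 2.06 to 4.10 in the other 4 libraries. Without OA-AP 3, Hpgd rose by 2.90 (adjusted p = 4.19e-06) and Ptger4 fell by 0.88 (adjusted p = 0.0173) on the log2 scale, both still called. The adipocyte list summed to 28.9 and 42.4 CPM in control pancreas and 48.8, 48.4 and 81.6 CPM in OA-AP. Of its 2 tested genes Lipe was higher (log2 fold change 1.25, adjusted p = 0.00174), and Plin1, Cidec and Lep were at 0 in controls. Hpgd was higher in OA-AP pancreas, as given above. Among the OA-AP pancreas libraries, OA-AP 3 had the highest list sum and the lowest Hpgd. The part of the adipocyte list in the Hpgd change was not tested.

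**Figure D3:**
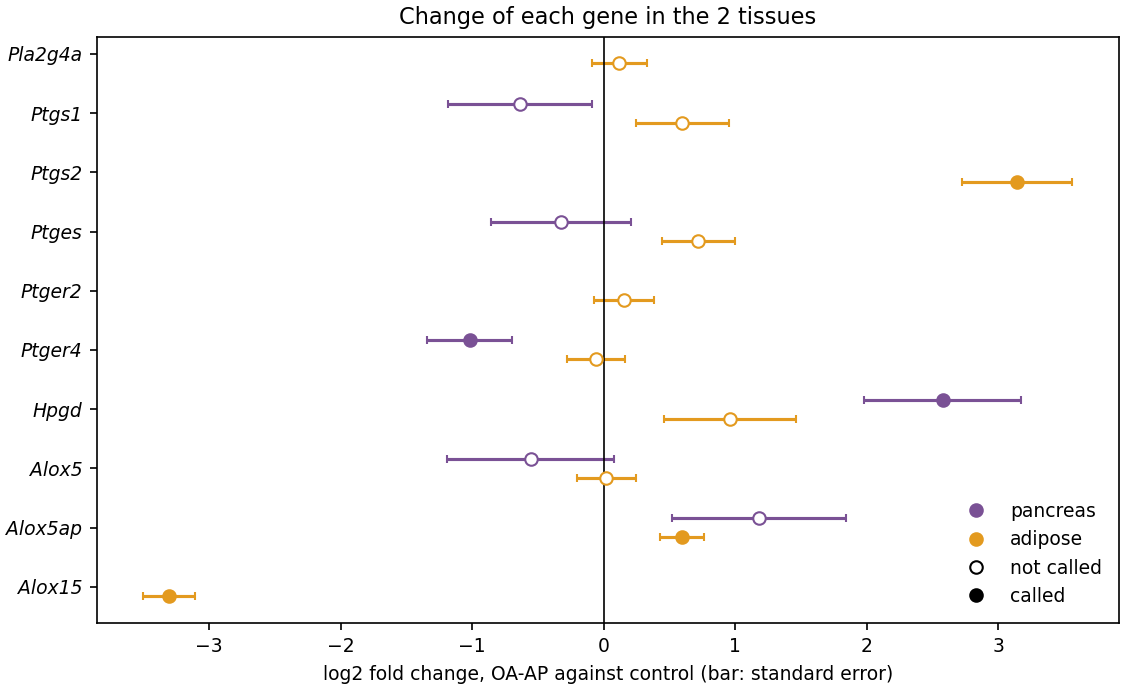
Log2 fold change of each gene, OA-AP against control, with its standard error, for pancreas (purple) and adipose tissue (yellow). Filled points were called, open points were not, and 4 genes have no pancreas point because the low-count filter removed them. Alox15 (-3.30) and Ptgs2 (3.14) in adipose tissue lie farthest from 0.

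Whether a member changed differently in the tissues was tested directly, as the adipose change minus the pancreas change over all 11 libraries. None of the 10 members was called by edgeR, 1 had an unadjusted p under 0.05 and DESeq2 called none, where 21.3% of 17046 genes were called. The closest was Ptger4, which differed by 0.95 (95% interval 0.07 to 1.84, adjusted p = 0.120) and was called without pancreas OA-AP 2 (1.22, adjusted p = 0.0496). Hpgd differed by -1.62 (95% interval -4.10 to 0.86, adjusted p = 0.350) and was called without adipose OA-AP 2 (-2.49, adjusted p = 0.0423). For Ptgs2 the interval, -9.57 to 5.47, was too wide to place the tissues in any order. A difference between the tissues was therefore not shown for any member.

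Control tissues alone were compared to place the pathway without the disease model. Adipose tissue had higher levels of 8 of the 10 members, where 55.5% of genes were called and 29.4% were higher in adipose. These levels are on the scale of the joint fit of both tissues. Hpgd was at 36.0 ± 10.3 CPM in adipose tissue (n = 3) and 1.91 ± 0.368 in pancreas (n = 2), a log2 difference of 4.22 (SE 0.89, adjusted p = 0.00243). Ptges differed by 3.78 (adjusted p = 2.25e-05), Ptger2 by 4.98 (adjusted p = 8.33e-05) and Alox15 by 3.57 (adjusted p = 0.000158). Ptger2 had 0 and 1 counts in control pancreas and Alox15 had 11 and 1, so the size of both differences is uncertain. Without 1 library they ran from 3.94 to 9.55 for Ptger2 and from 2.80 to 6.04 for Alox15.

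Alox5ap (2.48), Pla2g4a (2.26), Ptgs1 (1.52, adjusted p = 0.0316) and Alox5 (1.31, adjusted p = 0.0296) were also higher in adipose tissue. The last 2 lost the call without either pancreas control (Ptgs1 at 1.88, adjusted p = 0.0788, and 1.28, adjusted p = 0.171, and Alox5 at 1.75, adjusted p = 0.0568, and 1.03, adjusted p = 0.181), and Ptgs1 also without adipose control 3 (1.47, adjusted p = 0.0519) or with no filter on low counts (1.63, adjusted p = 0.0721). Ptgs2 was not called (3.16, adjusted p = 0.359), except with library totals alone (5.45, adjusted p = 0.0381). Ptger4 was lower in adipose tissue without being called (-0.69, adjusted p = 0.0638). It was called lower without adipose control 2, the library with acinar transcripts (-0.83, adjusted p = 0.0457), and without pancreas OA-AP 2 (-0.70, adjusted p = 0.0455) or OA-AP 3 (-0.70, adjusted p = 0.0457), but turned to a called 1.76 with library totals alone, a scaling that moved the median of all genes from 0.22 to 2.67.

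A further 62 genes of the pathway, listed from the enzymes, receptors and transporters around the members, were examined in the same fits. In adipose tissue 45 were tested and 16 called (35.6%), 7 higher and 9 lower, where 25.1% of all genes tested were called, 12.1% higher and 13% lower. The genes that fell included both prostaglandin D2 synthases, the thromboxane synthase with its receptor, and the receptor for prostaglandin F2α. The genes that rose included the prostaglandin transporter and receptors for leukotriene B4 and formyl peptides or lipoxin A4.

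Thromboxane synthase, Tbxas1, went from 16.4, 20.8 and 16.4 CPM in controls to 6.27, 7.79 and 9.24 CPM (log2 fold change -1.20, SE 0.18, adjusted p = 0.00293). Its receptor Tbxa2r fell by 1.75 on the log2 scale (SE 0.36, adjusted p = 0.00958) from 1.03 to 2.18 CPM in controls to 0.455 to 0.577 in OA-AP. Both separated the groups completely, as did 52.4% of all genes tested in adipose tissue. The haematopoietic prostaglandin D synthase Hpgds (-1.34, adjusted p = 0.0292), the lipocalin-type synthase Ptgds (-2.10, adjusted p = 0.0234, with at most 55 counts in a library) and the prostaglandin F receptor Ptgfr (-1.67, adjusted p = 0.0238) also fell. Each of these 3 calls depended on several libraries. Hpgds was not called without control 2 (-0.99, adjusted p = 0.0819), control 3 (-1.41, adjusted p = 0.0649) or OA-AP 1 (-1.05, adjusted p = 0.0588). Ptgds was not called without control 1 (-2.08, adjusted p = 0.0650), control 3 (-1.65, adjusted p = 0.0800), OA-AP 2 (-2.11, adjusted p = 0.0509) or OA-AP 3 (-1.80, adjusted p = 0.0792), nor Ptgfr without control 2 (-1.58, adjusted p = 0.0616), control 3 (-1.37, adjusted p = 0.0808) or OA-AP 1 (-1.77, adjusted p = 0.0522).

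Slco2a1, the transporter that carries prostaglandins into cells, rose from 57.6, 47.9 and 65.7 CPM in control adipose tissue to 222, 106 and 133 CPM (log2 fold change 1.43, SE 0.28, adjusted p = 0.00927). Fpr2, the receptor for formyl peptides and lipoxin A4, rose from 0.148, 1.02 and 0.579 CPM to 6.48, 5.67 and 5.61 CPM (3.36, SE 0.50, adjusted p = 0.00324). Ltb4r1, the high-affinity leukotriene B4 receptor, rose from 2.25, 2.37 and 2.69 CPM to 8.24, 4.71 and 9.95 CPM (1.64, SE 0.29, adjusted p = 0.00543). In all 3 the lowest OA-AP library lay above the highest control, in a comparison where the groups of 52.4% of all genes tested did not overlap. Fpr2 and Ltb4r1 are known from neutrophils, whose markers rose in the same libraries as given above. The part of neutrophils in the rise of these receptors was not tested.

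The other called genes in adipose tissue were Dpep2 (0.87), Aloxe3 (1.48), Pla2g15 (0.66) and Ptges3 (0.61), which were higher, and Pla2g4c (-1.39), Mgst2 (-1.34), Ggt5 (-0.75) and Ptgr2 (-0.67), which were lower. Mgst2 can conjugate glutathione to leukotriene A4, Ggt5 turns leukotriene C4 into D4 and Dpep2 turns D4 into E4. Pla2g15 is the lysosomal phospholipase, and Ptgr2 reduces a prostaglandin breakdown product. Pla2g15 and Ptges3 were called just above the fold of 1.5 and fell under it with library totals alone (0.51 and 0.45), Ptges3 also with no filter on low counts (0.58). The same happened to Pla2g15 without control 3 (0.58) or OA-AP 3 (0.56) and to Ptges3 without control 1 (0.54), OA-AP 1 (0.55) or OA-AP 3 (0.55), while Ggt5 was not called without control 3 (-0.71, adjusted p = 0.0621) or OA-AP 3 (-0.69, adjusted p = 0.0555).

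In the pancreas 33 of the 62 genes were tested and 8 called (24.2%), 2 higher and 6 lower, a share below the 29.8% of all genes tested that were called (16.2% higher and 13.5% lower). Pla2g1b, the digestive phospholipase that acinar cells secrete, fell from 2360 and 3021 CPM to 436, 437 and 508 CPM (log2 fold change -2.55, SE 0.17, adjusted p = 9.63e-05). The acinar marker list fell in the same libraries, as given above, and its part in the fall of Pla2g1b was not tested. In adipose tissue Pla2g1b had 795 counts in control 2, the library with acinar transcripts, and at most 2 in any other.

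Ptges3, a prostaglandin E synthase that is also the HSP90 co-chaperone p23, rose in the pancreas from 8.07 and 9.87 CPM to 16.7, 18.2 and 20.6 CPM (1.05, SE 0.18, adjusted p = 0.00333). Ptges2, the membrane-associated synthase, rose by 0.66 (adjusted p = 0.0327) but was not called by DESeq2 (0.63, adjusted p = 0.0710). The other genes that fell were the phospholipases Pla2g12a (-1.14) and Pla2g16 (-0.88), the prostaglandin reductase Ptgr1 (-1.69), and, from the leukotriene branch, the glutathione transferase Mgst3 (-1.33) and the gamma-glutamyltransferase Ggt1 (-0.71). Ptgr1 was called under 2 of its 6 alternatives only: it missed the threshold by DESeq2 (-1.75, adjusted p = 0.0730), with no filter on low counts (-1.62, adjusted p = 0.115) and with the replicate block (-1.67, adjusted p = 0.0665). With library totals alone none of these 5 was called, and Ggt1 stood at 0.0099. Leaving out 1 control brought the count of 8 to 5 (control 1) or 3 (control 2), and without OA-AP 2 or OA-AP 3 it was 11 or 10. Pla2g16 (-0.81 and -0.94), Ptgr1 (-1.73 and -1.64), Mgst3 (-1.27 and -1.38) and Ptges2 (0.53 and 0.81) were not called without control 1 or control 2, and Ggt1 was not without control 2 (-0.55). Without OA-AP 1, Ptges2 (0.67) and Ptgr1 (-1.68) were not called, nor Ptgr1 without OA-AP 2 (-1.73) or Ptges2 without OA-AP 3 (0.56).

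**Figure D4:**
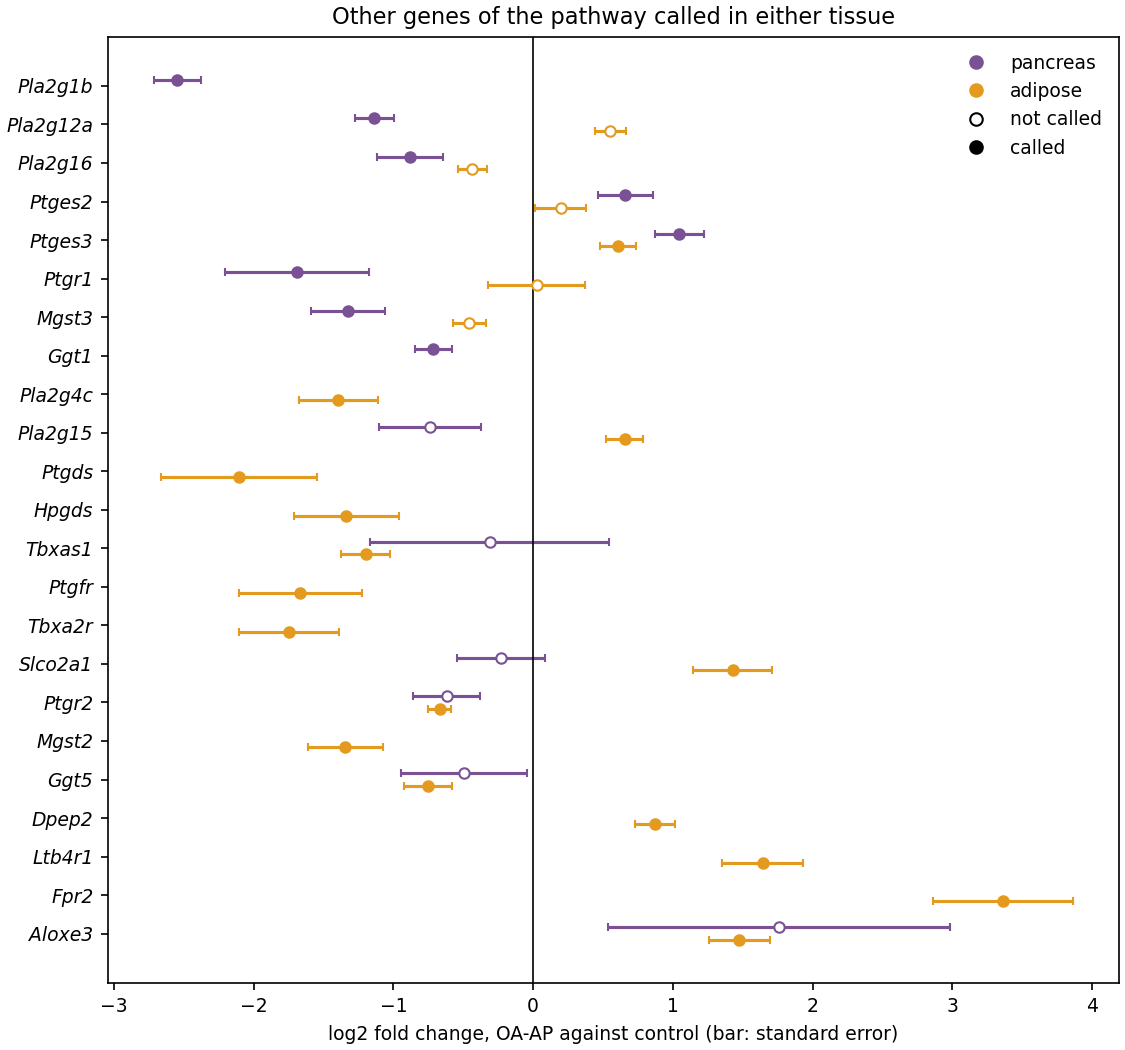
Log2 fold change with its standard error, OA-AP against control, of the other pathway genes called in either tissue, for pancreas (purple) and adipose tissue (yellow). Filled points were called and open points were not. Fpr2 (3.36, adipose) and Pla2g1b (-2.55, pancreas) lie farthest from 0, and Ptges3 was called in both tissues.

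The genes whose pattern over the 11 libraries was most like that of a member were found by the root mean square difference of centred log2 CPM among 17046 genes, as a description. For Ptgs2, whose own SD was 2.65 on that scale, they were Ppbp (0.91), Mcemp1 (0.97) and Mefv (0.97). Ppbp, a platelet chemokine, read 0.865 to 1.49 CPM in control adipose, 6.34 to 15.1 in OA-AP adipose, and in pancreas 9.28 CPM in OA-AP 3 against at most 0.780 elsewhere, on the joint scale. For Alox5ap (SD 1.39) they were Slc11a1 (0.25), Tal1 (0.29) and Inpp5d (0.29). For Alox15 (SD 2.54) they were Lrrc4 (0.74), an immunoglobulin kappa variable segment (0.84) from a family of near-identical copies whose counts are uncertain, and Ppp1r3c (0.85).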

How the data were processed

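RNA of 11 mouse libraries, 5 from pancreas and 6 from adipose tissue, was sequenced. The authors trimmed reads with Trim Galore 0.6.6 and fastp 0.20.1 (versions from the submitters' processing notes), aligned them with STAR to GRCm38 and counted them per gene with featureCounts 2.0.1. The deposited values are raw counts, 1 table per tissue. The annotation release and strand setting are not given in the sources used here.

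Counts were fitted with edgeR 4.0.16 in R 4.3.3 (filterByExpr, TMM scaling, robust quasi-likelihood test, Benjamini-Hochberg adjustment over all genes tested), with DESeq2 1.42.0 as an alternative. Samples were grouped by the labels. OA-AP was compared with control within each tissue. The difference between tissues, and control adipose against control pancreas, came from a joint fit over genes in both tables. A gene was called at an adjusted p under 0.05 and a fold of at least 1.5, or for the difference between tissues at the adjusted p alone. Standard errors are the log2 fold change over the root of F. Scripts were tested on simulated data, where some genes simulated without a change were also called. Another setting of the simulated spread was added after these calls were seen. Intervals cover the spread between these libraries as the fit estimates it. The limit of 3 counts covers counting error only.

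Named were the 10 members, the other pathway genes called in either tissue, the 3 genes nearest in pattern to Ptgs2, Alox5ap and Alox15, overlapping genes, and marker lists as sums. Members and lists were chosen with earlier results of these data known. Alternatives changed the scaling, the low-count filter, the fold threshold, the replicate number as a block, and 1 library left out at a time. Lowest chi-square per degree of freedom between libraries of a group was 7.56, for the 2 pancreas controls, so none was the same library counted again. This value cannot tell whether libraries came from the same mouse.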

Additional observations from a re-analysis of the deposited data

Results flagged for a closer look

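Outside the 10 members, 5 of the 48 other pathway genes tested over both tissues changed differently in adipose tissue and pancreas by the interaction term of edgeR's quasi-likelihood fit (10.4%), a share below the 21.3% of all 17046 genes. Pla2g12a, a secreted phospholipase, was at 22.7 and 24.9 CPM in control pancreas and 10.1 to 11.2 in OA-AP, but at 71.4 to 83.2 CPM in control adipose tissue and 103 to 128 in OA-AP, a difference of 1.68 on the log2 scale (adjusted p = 0.000103). Pla2g15, the lysosomal phospholipase, differed by 1.39 (adjusted p = 0.0116), with a called rise in adipose tissue (0.66) and an uncalled -0.74 in pancreas. The difference of the transporter Slco2a1 was 1.65 (adjusted p = 0.0251), its pancreas values being 4.89 and 5.28 CPM in controls and 4.46, 5.66 and 2.88 CPM in OA-AP. Mgst3, a microsomal glutathione transferase, differed by 0.86 (adjusted p = 0.0153), with a called fall in pancreas (-1.33) and a log2 fold change of -0.46 in adipose tissue (adjusted p = 0.0225), under the fold of 1.5. Ltc4s, the leukotriene C4 synthase, gave 4.20 (adjusted p = 0.00518), but it had 4 and 6 counts in control pancreas and 0, 1 and 0 in OA-AP pancreas, so that this size depends on the prior count of the fit and is not a bound. Its adipose levels were 30.0 to 37.3 CPM in controls and 25.4 to 30.7 in OA-AP.

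With library totals alone the differences of Pla2g15 (0.53, adjusted p = 0.298), Slco2a1 (0.78, adjusted p = 0.211) and Mgst3 (0.03, adjusted p = 0.960) were not called, nor with the replicate block those of Pla2g15 (1.32, adjusted p = 0.0594) and Mgst3 (0.78, adjusted p = 0.0504), nor with no filter on low counts that of Slco2a1 (1.64, adjusted p = 0.0717). Without 1 library Pla2g15 was lost at pancreas control 1 (adjusted p = 0.0526) and control 2 (0.0506), Mgst3 at pancreas control 1 (0.80, adjusted p = 0.0767), and Slco2a1 at adipose control 1 (1.59, adjusted p = 0.0512), adipose control 2 (1.49, adjusted p = 0.0530), pancreas control 1 (1.69, adjusted p = 0.0782) and pancreas control 2 (1.60, adjusted p = 0.0945).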

How the results depend on the processing

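The adipose calls of Ptgs2 and Alox15 held under all 7 alternatives and all 6 fits without 1 library. The pancreas call of Hpgd held under its 6 alternatives and was lost when either control was left out. Library totals alone, as scaling, called 6349 genes in pancreas (5843 higher and 506 lower, against 2090 and 1744), 6662 in the difference between tissues (392 higher and 6270 lower) and 15368 between control tissues. A fold of at least 2 left 2464 genes and 5 other pathway genes in pancreas and 2228 genes in adipose tissue. At least 10 counts in every library left 2 members to test in pancreas and in control tissues, of which 1 was called in each, and 5808 genes called between control tissues, since fewer genes were tested. Uncalled values that changed sign with library totals alone were, in pancreas, Ptgs1 (0.093), Ptges (0.36) and Alox5 (0.11), in adipose tissue Alox5 (-0.13) and Pla2g4a (-0.031), and in the difference Alox5 (-0.25) and Pla2g4a (-0.59). The called Ggt1 came to 0.0099 in pancreas and, between control tissues, Ptger4 to 1.76. Adipose Alox5 was -0.0041 with no filter on low counts. The cause of these shifts was not tested.

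Deviations of same-numbered samples correlated at -0.163 to 0.0562 between control and OA-AP within a tissue, against -0.250 to 0.293 for samples of different number. Between tissues they correlated at -0.0115 to 0.0900, against -0.0789 to 0.0488, and the highest value was that of the OA-AP 3 samples. The deviations of the 2 pancreas controls mirror each other, so these values do not settle whether samples were paired. The replicate number, which the labels do not tie to an animal or batch, was also used as a block. Over both tissues this matched pancreas and adipose libraries of the same condition and number, as if from the same mouse. There 1 member was called in the difference between tissues (Ptgs1 at 1.36, adjusted p = 0.0253), 2156 genes were called, and the calls of Pla2g15 and Mgst3 were lost. Within a tissue the block matched control and OA-AP libraries of the same number. The calls of Alox5ap in adipose tissue (0.58, adjusted p = 0.0687) and of Ptgr1 in pancreas (-1.67, adjusted p = 0.0665) were then lost, and adipose Alox5 was at -0.025.

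Without 1 library at a time the members called were 0 to 2 in pancreas and 0 to 1 in the difference, the other pathway genes called in pancreas 3 to 11, and the genes called 1495 to 4265 in pancreas and 2334 to 3857 in the difference. Log2 values that changed sign ran over -0.081 to 0.28 (Ptger2), -0.26 to 0.13 (Ptger4), -0.28 to 0.19 (Alox5) and -0.033 to 0.34 (Pla2g4a) in adipose tissue, and over -6.59 to 0.94 (Ptgs2), -5.59 to 0.024 (Ptger2), -2.17 to 0.088 (Alox5ap), -3.17 to 0.068 (Alox15) and -1.12 to 0.84 (Pla2g4a) in the difference. The pancreas has 2 control libraries and few counts for most members, so only large changes were detectable there.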

Other observations

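Among the prostanoid receptors of the pathway list, Ptger3 (EP3), named here after its values were seen, stood at 80.6 ± 0.325 CPM in control pancreas (SD, n = 2) and 90.4 ± 9.87 in OA-AP (n = 3), well above Ptger4 at 6.60 ± 1.71 and 3.27 ± 1.04 CPM in the same libraries. In adipose tissue Ptger3 was at 38.4 ± 13.3 CPM in controls and 22.9 ± 11.2 in OA-AP (n = 3 each). Neither change was called by edgeR's quasi-likelihood test (log2 fold change 0.17 in pancreas and -0.74 in adipose tissue).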
